A study of Zea mays with 12 samples.

Results

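Very long genes of maize are the gene models with Zm identifiers whose span, from the first to the last annotated base with introns included, is over 20000 bp and whose FPKM is at least 1 in both RNA libraries of a line. FPKM is a level scaled by transcript length and by the mapped fragments of the library. In the inbred line B73, 857 gene models had such a span, and 489 of these (57.1%) passed the expression minimum. They were 2.84% of the 17218 expressed gene models. In the inbred line Mo17, 824 models had such a span, 565 of these (68.6%) were expressed, and they made up 2.94% of 19236 expressed models. The rule used span and RNA level, so neither is a finding here. The other expressed gene models, 16729 in B73 and 18671 in Mo17, serve as the comparison.

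Seedlings of both lines were 14 days old, grown in days of 16 h light (28 °C) and 8 h darkness (25 °C), and no treatment or transgene is given for any sample. Each line had 2 samples for each of 3 assays: m6A-seq, polysome profiling and RNA-seq of total RNA. The study examined m6A in these lines and its relation to translation. Whether replicates are separate plants is not stated in the labels. The p-values therefore reflect only how much these samples vary, and that variation may be technical.

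m6A, a methyl group on the N6 position of adenosine, is placed on messenger RNA in the nucleus by a methyltransferase complex and is bound in plants by proteins with a YTH domain, which act on the stability, processing and transport of the RNA. In plant messenger RNA it is known mainly from the region around the stop codon and the 3′ untranslated region. A polysome is a messenger RNA with several ribosomes on it, and the RNA of this fraction, set beside total RNA, is a measure of how far a transcript is represented among RNAs in translation. m6A-seq sequences RNA fragments pulled down by an antibody to the mark, and the summit of a peak is the position of the strongest enrichment. What served as the control for enrichment is not stated in the sources at hand.

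The very long B73 genes had a median span of 26447 bp, from 20032 to 93328 bp, and 35 of them were over 50 kb. The very long Mo17 genes had a median of 25332 bp, from 20004 to 146217 bp, with 43 over 50 kb and 7 over 100 kb. The other expressed genes had median spans of 3471 bp in B73 and 3550 bp in Mo17. The very long genes lay on all chromosomes, with 33 to 81 per chromosome in B73 and 38 to 89 in Mo17, most on chromosome 1 in each line. Another gene's span overlapped 119 very long genes of B73 (24.3%, against 8.33% of the other genes) and 74 of Mo17 (13.1%, against 8.54%). A summit in such an overlap was assigned to no gene, and for these genes the reads of overlapping models may not be told apart. Among the genes named below, this touches Zm00001d027472, Zm00001d040864, Zm00001d037401, Zm00001d037346, Zm00001d041693, Zm00001d047218, Zm00001d009657, Zm00001d023792, Zm00001d006475, Zm00001d016863, Zm00001d001809, Zm00014a_030343, Zm00014a_039539, Zm00014a_026473, Zm00014a_031514, Zm00014a_013557, Zm00014a_028149, Zm00014a_043224 and Zm00014a_029265. The files do not pair identifiers with gene names, and none of the 489 or 565 identifiers matched the reference table (0 in each line), so genes are named by identifier with no role given. Coordinates of B73 genes are in B73 RefGen_v4, and those of Mo17 genes follow the Mo17 tables, whose build is not named.

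The B73 peak lists had 17399 and 16161 entries, and the Mo17 lists 16379 and 14846. The FPKM of a library summed to between 665885 and 1157671. In B73, features without a Zm identifier held part of it. Zm models held 673882 of 916681 and 693258 of 934245 in polysome RNA. In total RNA they held 452783 of 1147928 and 438866 of 1157671. In Mo17 they held the whole sum in each library. With libraries scaled to equal sums over Zm models, as given below, the B73 ratios of polysome to total RNA were lower. The median log2 ratio of very long genes was then −0.75 and not −0.33. Over all tested genes it was −0.19 and not 0.29. The depth behind a value is unknown, since FPKM carry none, so no counting interval is given.

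Most very long genes had an m6A summit. In B73, 453 of 489 had a summit in both replicates (92.6%), where the share over all expressed gene models was 50.9%. Replicate 1 alone placed a summit in 94.7% of the very long genes and replicate 2 in 93.0%. The other expressed genes had 52.5% and 52.8% in the same lists, and 49.7% had a summit in both. In Mo17, 490 of 565 very long genes had a summit in both replicates (86.7%), with 42.6% over all expressed gene models. The shares per replicate were 89.6% and 88.5% in the very long genes, against 45.1% and 43.5% in the other genes, and 41.2% of the others had one in both. In each list the gap between very long and other genes was far larger than the gap between the replicates, but both replicates score the same genes, and no test was run across genes, which are not replicates.

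The share was already high below the span threshold and changed little above it. In B73, genes with spans of 15 to 20 kb had a summit in both replicates in 90.4% of cases. The share was 93.1% of 320 genes at 20 to 30 kb, 91.8% of 134 genes at 30 to 50 kb and 91.4% of 35 genes over 50 kb. In Mo17 it was 80.2% at 15 to 20 kb, 85.9% of 390 genes at 20 to 30 kb, 90.2% of 132 genes at 30 to 50 kb and 83.7% of 43 genes over 50 kb. Genes of 2 to 5 kb had 55.7% in B73 and 43.8% in Mo17. RNA level differs between span classes as well, so members and others were also compared at a mean RNA FPKM of 2 to 10, a window chosen after the data were seen. There, 93.8% of 324 very long genes and 52.1% of 8935 other genes of B73 had a summit in both replicates. In Mo17 the shares were 86.6% of 367 very long genes and 38.5% of 8608 other genes.

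**Figure D1:**
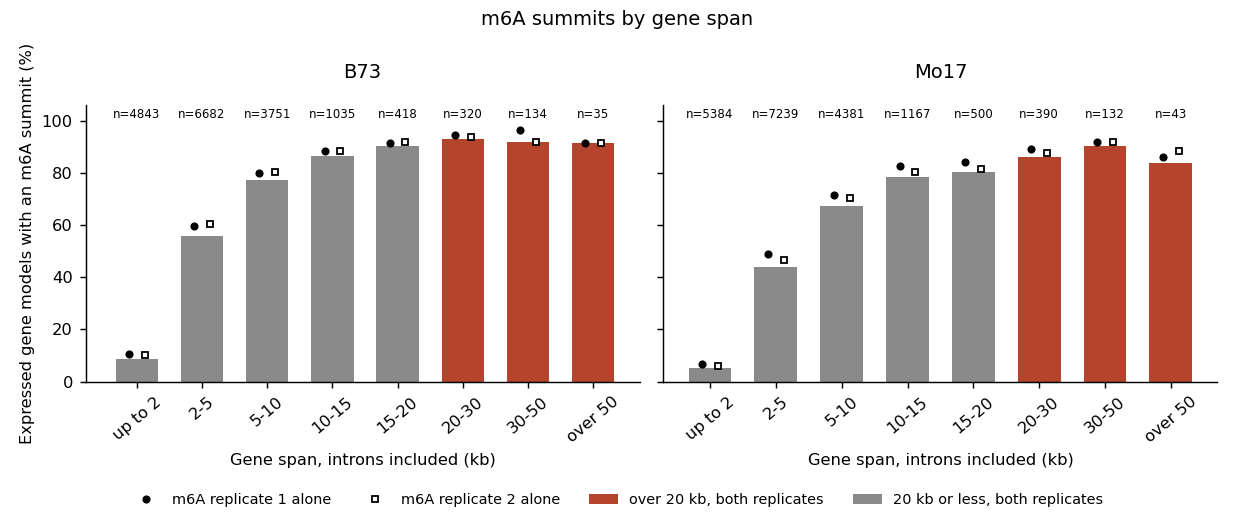
Share of expressed gene models with an m6A summit (y axis, %) by gene span (x axis, kb) in B73 and Mo17; bars give genes with a summit in both replicates, points each replicate alone, and n the genes per class. The 3 classes over 20 kb stand between 91.4% and 93.1% in B73 and between 83.7% and 90.2% in Mo17, next to 90.4% and 80.2% at 15 to 20 kb.

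Mean summits per gene over both replicates were 1.95 at 15 to 20 kb and 2.52 at 20 to 30 kb in B73. In Mo17 they were 1.64 and 2.1. The few genes nearest to the span threshold had similar numbers of summits on either side of it. Just over it in B73, Zm00001d049211 (20032 bp) had 2 and 1 summits in replicates 1 and 2, and Zm00001d001809 (20048 bp) had 3 and 3. Just under it, Zm00001d033984 (19994 bp) had 3 and 2 summits and Zm00001d051608 (19984 bp) had 2 and 3. In Mo17, Zm00014a_043224 (20004 bp) had 2 and 2 summits and Zm00014a_031861 (20005 bp) had 1 and 1, while under the threshold Zm00014a_007593 (19995 bp) had 2 and 1 and Zm00014a_029265 (19982 bp) had 1 and 1.

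Very long genes held more summits per gene than other genes, and fewer per length of span. In B73 the very long genes averaged 3.36 and 2.73 summits in replicates 1 and 2, against 0.654 and 0.635 in the other genes. In Mo17 they averaged 2.44 and 2.18, against 0.552 and 0.508. Per 10 kb of span, the very long genes of B73 had 1.09 and 0.888 summits and the others 1.5 and 1.46. In Mo17 the densities were 0.799 and 0.711 in very long genes and 1.24 and 1.14 in the others. Although they were under 3% of expressed models, the very long genes took 9.45% and 8.27% of all peaks in the B73 lists and 8.43% and 8.28% in the Mo17 lists. Replicate 2 found fewer summits in the very long genes than replicate 1 in both lines. The summit numbers of a gene in the 2 replicates had a Spearman correlation of 0.837 across the 489 B73 genes and of 0.812 across the 565 Mo17 genes, a description over genes that share the same pair of libraries.

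Genes with several summits were frequent. In B73, 152 very long genes (31.1%) had at least 3 summits in both replicates, a pattern found in 2.21% of all expressed gene models. At least 5 in both were found in 75 (15.3%, against 0.767% of all expressed models). At least 10 were found in 21, for which no share over all expressed models was taken. In Mo17, 122 very long genes (21.6%) had at least 3 in both, against 1.54% of all expressed models, and 46 (8.14%, against 0.52%) had at least 5. At least 10 were found in 8, again without such a share. The number went up with span: genes of 20 to 30, 30 to 50 and over 50 kb averaged 2.52, 3.49 and 6.17 summits over both replicates in B73, with SDs of 0.318, 0.591 and 1.05 between the 2 replicates. In Mo17 the averages were 2.10, 2.73 and 2.93, with SDs of 0.207, 0.171 and 0.0987. The rise above 30 kb was thus larger than the replicate spread in B73 and close to it in Mo17.

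A single summit was still the most frequent number, in a share close to that of the other genes. By the lower count of the 2 replicates, 207 very long B73 genes (42.3%) had 1 summit, against 44.4% of the others, and 233 Mo17 genes (41.2%) did, against 37.4%. The longest B73 gene was one of them. Zm00001d027472 (chromosome 1, 6068283 to 6161610, minus strand, 93328 bp) had 1 summit in each replicate, 99.9% and 99.8% of the way along the span, with folds of 6.8 and 8.9. Its RNA level was low, at 1.24 and 1.6 FPKM in total RNA. The longest Mo17 gene, Zm00014a_026081 (chromosome 3, 222772077 to 222918293, plus strand, 146217 bp), also had 1 summit in each replicate, but at 3.8% of the span in both, with folds of 4.9 and 6.4. Its total RNA was at 39.3 and 43.4 FPKM, so a well expressed gene of this length had its summit near its start and none at its end.

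Among the other longest genes, summits at the end were the rule in B73 and less regular in Mo17. The B73 genes Zm00001d015890 (91091 bp), Zm00001d043305 (89500 bp), Zm00001d040864 (86788 bp) and Zm00001d047074 (86715 bp) each had 1 summit within 1000 bp of the 3′ end in both replicates, beside internal ones. Zm00001d015890 had 19 and 14 summits, and Zm00001d043305 had 6 and 2. Of the Mo17 genes, Zm00014a_036643 (145300 bp) and Zm00014a_002156 (115233 bp) had such a summit in both replicates. Zm00014a_001685 (129636 bp) and Zm00014a_028815 (114474 bp) had none, with their strongest summits at 99.1% and 94.6% of the span, which at these lengths is over 1000 bp from the end.

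Summits of very long genes were spread along the span with an excess at the 3′ end. The last 10% of the span held 30.1% and 35.8% of the summits of very long B73 genes, against 72.6% and 74.97% of those of the other genes. In Mo17 the last 10% held 35.8% and 38.1% in very long genes and 65.5% and 67.7% in the others. The first 10% held 3.04% and 2.92% in very long B73 genes, against 1.88% and 1.84% in the others, and 3.84% and 4.31% in very long Mo17 genes, against 1.67% and 1.46%. Each bin of 10% between these held from 5.09% to 11.3% of the B73 summits in very long genes, and from 5.14% to 10.1% of the Mo17 summits. Spans hold introns, and exons were not used here, so a summit inside a span cannot be placed in an exon, an intron or an untranslated region.

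**Figure D2:**
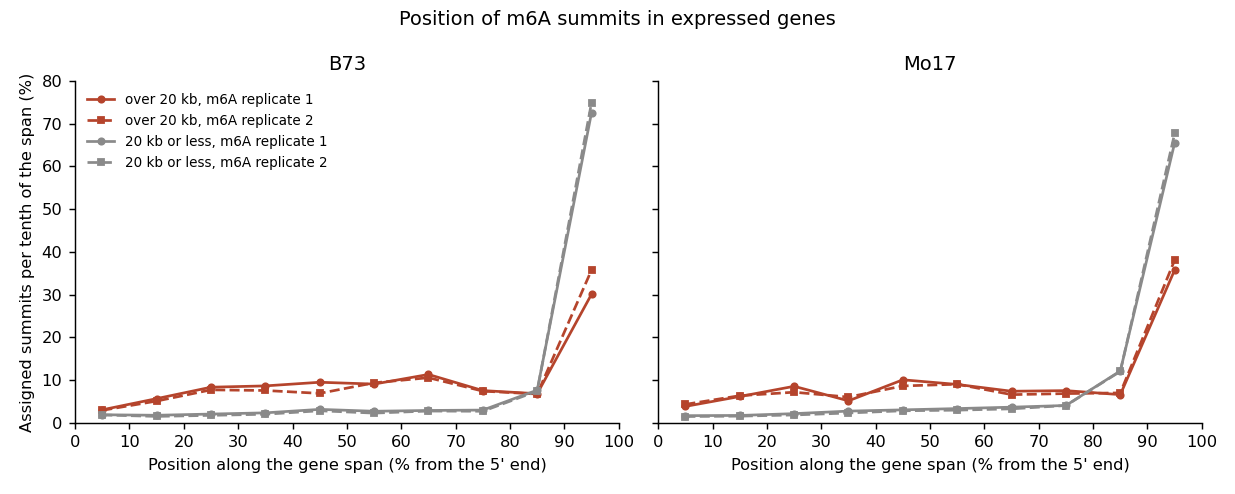
Share of assigned summits (y axis, %) in each 10% of the gene span (x axis, % from the 5′ end) for expressed genes over 20 kb and the other expressed genes, 1 line per m6A replicate. In the last 10% the very long genes stand at 30.1% and 35.8% in B73 and 35.8% and 38.1% in Mo17, and the other genes between 65.5% and 74.97%.

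Very long genes had more summits far from the end, while the median distance of their last summit from the end was close to that in other genes, with a longer tail. In B73 the summit nearest to the 3′ end lay a median of 201 and 207 bp from it in very long genes, against 169 and 166 bp in the others. In Mo17 the medians were 257 and 272 bp in very long genes, against 252 and 254 bp. The last summit was within 1000 bp of the end in 86.6% and 86.8% of very long B73 genes with a summit, against 94.01% and 94.2% of the others, and in 79.2% and 79.2% of those of Mo17, against 90.5% and 90.9%. Over all summits the medians were 10715 and 8710.5 bp in very long B73 genes, against 208 and 198 bp in the others, and 8614 and 8340 bp in Mo17, against 300 and 290 bp.

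Summits were then divided into terminal ones, within 1000 bp of the 3′ end, initial ones, within 1000 bp of the 5′ end, and internal ones. In B73, 394 very long genes (80.6%) had a terminal summit in both replicates, against 47.7% of all expressed gene models, and 248 (50.7%) an internal one, against 6.34%. In Mo17, 389 (68.8%) had a terminal summit in both, against 38.4%, and 277 (49.0%) an internal one, against 6.61%. An initial summit in both replicates was rare, with 7 genes in B73 (1.43%, against 1.14% of all expressed models) and 12 in Mo17 (2.12%, against 0.769%). A window of 1000 bp covers most of a short gene and little of a very long one. By construction this favours internal summits in very long genes and terminal or initial ones in short genes. The terminal shares differed in the other direction.

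Terminal summits were the stronger, wider and more repeatable kind. Fold enrichments, −log10 q values and peak widths come from the authors' lists and describe peaks within a list. In very long B73 genes, terminal summits had median folds of 10.4 and 11.1 and internal ones 6.16 and 6.68. In Mo17 terminal summits had 9.71 and 10.1 and internal ones 6.68 and 6.17. Terminal summits of the other genes had 7.12 and 7.57 in B73 and 6.89 and 7.27 in Mo17. Median peak widths in very long genes were 209 and 227 bp at the end and 108 and 110 bp inside in B73, and 198.5 and 207.5 bp against 111 and 118 bp in Mo17. Overlap with a peak of the other replicate was found for 96.3% and 98.0% of the terminal peaks and 57.6% and 76.8% of the internal peaks in B73, and 94.7% and 97.7% against 65.4% and 73.7% in Mo17.

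The share of summits at the end depended on the threshold on peaks. A −log10 q of at least 10 was reached by 84.2% and 86.4% of the terminal and 16.4% and 17.4% of the internal peaks in B73, and by 81.1% and 82.2% against 24.6% and 19.7% in Mo17. With only those peaks, the last 10% of the span held 71.2% of the summits of very long genes in B73 and 68.0% in Mo17, averaged over the replicates, and not 32.9% and 36.9%. The share of very long genes with a summit in both replicates was then 80.8% in B73, against 34.0% of the other genes, and 67.4% in Mo17, against 25.4%.

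The strongest enrichments repeated by both replicates were at gene ends in B73. Zm00001d013653 (chromosome 5, 16258269 to 16286212, plus strand) had top folds of 27.5 and 29.5, at 99.6% and 99.5% of its span. Zm00001d042213 (chromosome 3, 156286694 to 156310438, minus strand) had 26.8 and 28.6, and Zm00001d037867 (chromosome 6, 140348149 to 140388721, plus strand) had 27.5 and 26.4. Zm00001d033776, with 25.5 and 27.7, and Zm00001d041693, with 24.4 and 23.3, followed. All of these 5 genes had their top summit between 98.96% and 99.7% of the span, and their total RNA lay between 1.38 and 3.31 FPKM in every library.

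In Mo17, 3 of the 5 genes with the highest folds had the top summit at the end in both replicates. Zm00014a_021903 (chromosome 10, 102767098 to 102787252, minus strand) had folds of 28.2 and 23.4 at 98.9% of its span, Zm00014a_040727 had 23.3 and 21.1 at 98.6%, and Zm00014a_031514 had 21.0 and 23.4 at 99.4% and 99.3%. Zm00014a_026473 (chromosome 3, 202052858 to 202074724, minus strand) had 24.7 and 21.5 at 88.0% and 87.9%. Zm00014a_016657 (chromosome 10, 125365806 to 125390233, minus strand) had its top fold of 21.3 at 98.2% of the span in replicate 1 and its top fold of 22.4 at 0.6% in replicate 2, the one case among these 10 genes where the replicates placed it at opposite ends. The lower of a gene's 2 top folds had a median of 10.04 over the 453 very long B73 genes with a summit in both replicates, against 6.61 in the other genes, and of 8.90 over the 490 Mo17 genes, against 6.37. More summits per gene give more chances of a high top fold, and this was not corrected for.

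Among the 5 genes with the most summits in each line, the longest stretch between neighbouring summits ran from 3939 bp in Zm00014a_042050 to 25388 bp in Zm00001d037401. Zm00001d030282 (chromosome 1, 118828597 to 118879142, minus strand) had 30 and 24 summits over a span of 50546 bp. They reached from 15.7% and 29.9% to 97.6% and 97.6% of the span, neighbours stood a median of 542 and 546 bp apart, and none lay within 1000 bp of the 3′ end. Its folds ran from 4.41 to 12.6 in replicate 1 and from 4.03 to 10.9 in replicate 2, and 70.0% of the replicate 1 peaks and 83.3% of the replicate 2 peaks overlapped a peak of the other list.

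Zm00001d052943 (chromosome 4, 205690232 to 205738686, plus strand, 48455 bp) had 25 and 22 summits, with the last at 97.6% of the span in both replicates and the highest fold, 18.2 and 15.8, at that last summit. Zm00001d037401 (chromosome 6, 124532947 to 124584221, minus strand, 51275 bp) had 21 and 20 summits in a different layout. Its highest folds, 17.1 and 18.5, stood at 5.5% of the span in both replicates, a stretch of 24997 and 25388 bp held no summit, and the last summit lay at 82.3% and 82.2%. Zm00001d038093 (24 and 19 summits) and Zm00001d041880 (17 and 18) each had a terminal summit in both replicates as well as internal ones.

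In Mo17, Zm00014a_030343 (chromosome 1, 119913724 to 119953571, minus strand, 39848 bp) had 21 and 22 summits, none of them terminal, and 95.2% and 95.5% of its peaks overlapped one of the other replicate. Zm00014a_042050 (chromosome 8, 88186053 to 88213250, minus strand) had 21 and 17 summits in 27198 bp, from 8.36% and 8.24% to 99.2% and 99.3% of the span, the widest reach among the 5 Mo17 genes. Zm00014a_034169 had 19 and 15 summits, Zm00014a_000207 had 18 and 14, and Zm00014a_007302 had 13 and 13. In Zm00014a_000207 the summits began at 38.9% and 38.8% of the span, and 4 and 3 of them were terminal.

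**Figure D3:**
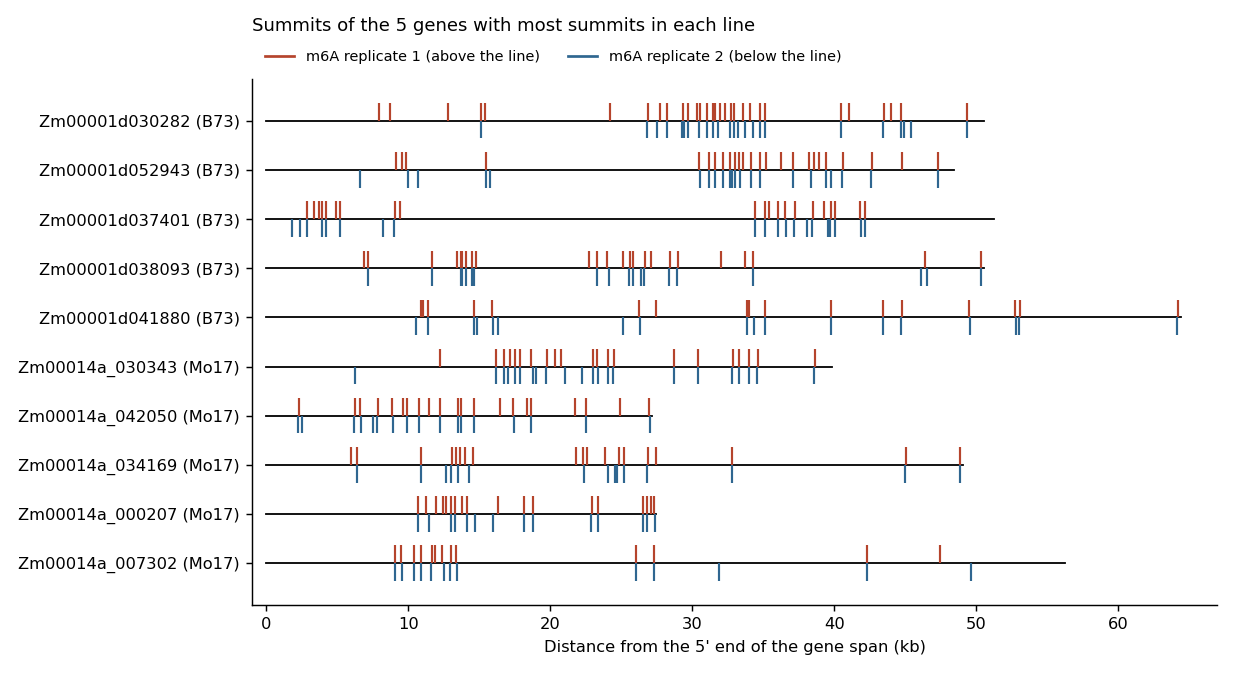
Summits of the 5 genes with most summits in each line, as distance from the 5′ end of the gene span (x axis, kb); the black line is the span, ticks above it are m6A replicate 1 and ticks below it replicate 2. Runs of close summits often recur at the same places in both replicates, and Zm00001d037401 shows a gap of 24997 and 25388 bp.

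Very long genes had lower RNA levels than other genes, and more so in polysome RNA. In B73 their median FPKM was 2.82 and 2.36 in the polysome libraries and 3.27 and 3.40 in the RNA libraries. The other genes had 7.58 and 6.39 in polysome RNA and 5.44 and 5.62 in total RNA. In Mo17 the medians of very long genes were 2.94 and 2.91 in polysome RNA and 6.66 and 5.70 in total RNA, and those of the others 6.57 and 6.26 in polysome RNA and 9.11 and 8.66 in total RNA. Very long genes thus lay under the others in all 8 libraries. In bulk seedlings, fewer cells with a transcript and less of it per cell cannot be told apart.

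Most of the 5 best expressed B73 members had FPKM in polysome RNA similar to or above those in total RNA. Set against the median log2 ratio of 0.29 over all tested genes, Zm00001d032380 and Zm00001d018413 lay above it. Zm00001d028915 (0.12), Zm00001d042066 (−0.23) and Zm00001d037346 lay below it. Zm00001d032380 (31874 bp) had 119.8 and 129.8 FPKM in polysome RNA and 69.5 and 66.5 in total RNA, with a single summit of low fold, 2.5 and 3.4, in each replicate. Zm00001d018413 had 73.7 and 74.5 FPKM in polysome RNA and 47.2 and 50.96 in total RNA. In neither gene did the groups overlap, but the log2 ratios, 0.87 and 0.59, were under the minimum of 1 used for a call. Zm00001d028915 (83747 bp), with 10 summits in each replicate, had 48.8 and 53.6 FPKM in polysome RNA and 49.2 and 44.8 in total RNA, and the groups overlapped. Zm00001d037346 differed from these, at 10.9 and 13.1 FPKM in polysome RNA and 29.4 and 28.9 in total RNA, and fell (log2 ratio −1.22 ± 0.17 SE, limma adjusted p = 0.00303).

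In Mo17, Zm00014a_014560 had 82.9 and 94.1 FPKM in polysome RNA and 78.4 and 53.9 in total RNA, the highest total RNA mean of the very long Mo17 genes. Zm00014a_039539 had 15.04 and 17.8 FPKM in polysome RNA and 54.7 and 55.4 in total RNA, far apart (log2 ratio −1.69 ± 0.12 SE, limma adjusted p = 0.000656). Zm00014a_023361, with 18.8 and 25.8 FPKM in polysome RNA and 54.6 and 56.5 in total RNA, fell as well (log2 ratio −1.29 ± 0.16 SE, limma adjusted p = 0.00192), but with the libraries scaled by the median of log ratios its ratio was −0.88 and the call was lost.

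Polysome and total RNA were compared with limma on log2(FPKM + 1) over all tested genes of a line. In B73 these include features without a Zm identifier. Calls required a limma p, adjusted by Benjamini-Hochberg, under 0.05 and a log2 ratio of 1 or more in either direction. This scale understates the change of low genes, which many members are. In B73, 21 very long genes were higher in polysome RNA (4.29%, where 16.6% of all 19342 tested genes were) and 39 were lower (7.98%, against 5.36%). The remaining 429 were not called. In Mo17, 4 were higher (0.708%, where 5.07% of all 20208 tested genes were) and 225 were lower (39.8%, against 16.6%), with 336 not called.

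The median log2 ratio of very long genes lay below that of the others in both lines. In B73 it was −0.33 in very long genes, with −0.21 and −0.43 for replicates 1 and 2, against 0.30 in the other genes and 0.29 over all tested genes. In Mo17 it was −0.85 in very long genes, with −0.93 and −0.79, against −0.39 in the others and −0.36 over all. The ratio was below 0 in 334 very long genes of B73 (68.3%, against 34.7% of the others) and in 502 of Mo17 (88.8%, against 68.3%). At an FPKM of at least 5 in 2 of 4 libraries, the 163 very long B73 genes tested had a median of −0.0057. Over all genes tested it was 0.54. Of the 163 genes, 19 were higher and 14 lower (26% and 6.75% of all). The 323 of Mo17 then had −0.93, against −0.28, with 4 higher and 143 lower (6.98% and 18.5% of all). Only 125 of the B73 and 313 of the Mo17 genes reached 5 FPKM in both RNA libraries. The rest needed a polysome library to pass, and what this does to the medians was not tested. FPKM are relative to the library, so ratios are read here against those of other genes and not as absolute amounts.

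The same contrast was taken per library as the median log2 level of very long genes minus that of the others. In B73 it was −1.15 ± 0.02 in polysome RNA and −0.59 ± 0.001 in total RNA (SD, n = 2 libraries each). In Mo17 it was −0.92 ± 0.03 in polysome RNA and −0.46 ± 0.09 in total RNA (SD, n = 2 each). The step between the assays was −0.56 in B73 and −0.45 in Mo17, larger than the spread between libraries and with no overlap. The exact permutation test over the 4 libraries of a line gave a two-sided p of 0.333 in each line, the smallest that 6 regroupings allow, so this design cannot pass a threshold of 0.05.

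Members were chosen on total RNA, which by itself can lower a ratio to total RNA, in the others as well. Chosen instead on an FPKM of at least 1 in both polysome libraries, a selection added after the data were seen, 404 very long B73 genes had a median ratio of −0.16, against 0.39 in the others, and the step between the assays was −0.50. Of these, 24 were higher (5.94%) and 23 lower (5.69%), where 18.6% and 2.42% of all Zm models chosen in this way were. Lower calls no longer outnumbered higher ones in B73. But this choice leaves out models low in polysome RNA, which by itself can raise a ratio and remove lower calls. How much of the change comes from the choice was not tested. In Mo17, 453 genes had −0.79, against −0.26, a step of −0.48, and 5 were higher (1.10%) and 161 lower (35.5%), where 5.76% and 14.9% of all such models were. In the window of 2 to 10 FPKM of total RNA, the medians were −0.38 in very long and 0.25 in other genes of B73, and −0.88 and −0.46 in Mo17.

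The counts of calls depended on how libraries were scaled. Scaled by the median of log ratios, B73 had 6 very long genes that were higher and 96 that were lower, where 7.24% and 8.62% of all tested genes were. Mo17 had 16 and 108, where 11.9% and 6.93% of all tested genes were. With FPKM summing equally over Zm gene models, B73 had 1 higher and 145 lower, beside 3.53% and 13% of all tested genes. Mo17 had 2 higher and 300 lower, beside 2.45% and 25.9%. These scalings moved the median of all tested genes to 0.00 and −0.19 in B73 and to −0.01 and −0.56 in Mo17. Without RNA replicate 1 the median ratio of very long B73 genes was −0.34, against 0.27 over all tested genes. Without polysome replicate 1 it was −0.40, against 0.20.

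The ratio went down with span. In B73 the medians were −0.07 at 15 to 20 kb, −0.26 ± 0.14 at 20 to 30 kb, −0.41 ± 0.19 at 30 to 50 kb and −0.52 ± 0.22 over 50 kb (SD, n = 2 replicates). In Mo17 they were −0.70 at 15 to 20 kb, −0.79 ± 0.12, −0.97 ± 0.14 and −1.15 ± 0.21 (SD, n = 2 replicates). Neighbouring classes over 20 kb differed by about the spread between replicates or less. That spread holds a shift shared by the classes of a line, so it is not the error of a difference between them. The order was the same in both replicates of both lines. In B73 the 3 classes had −0.17, −0.29 and −0.31 in replicate 1 and −0.36, −0.56 and −0.63 in replicate 2. In Mo17 they had −0.87, −1.08 and −1.26 in replicate 1 and −0.70, −0.88 and −0.97 in replicate 2. The share of lower calls was 5.94%, 9.70% and 20% in the 3 B73 classes and 35.6%, 47.0% and 55.8% in the 3 Mo17 classes. Over all tested genes it was 5.36% in B73, near the value at 20 to 30 kb, and 16.6% in Mo17.

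**Figure D4:**
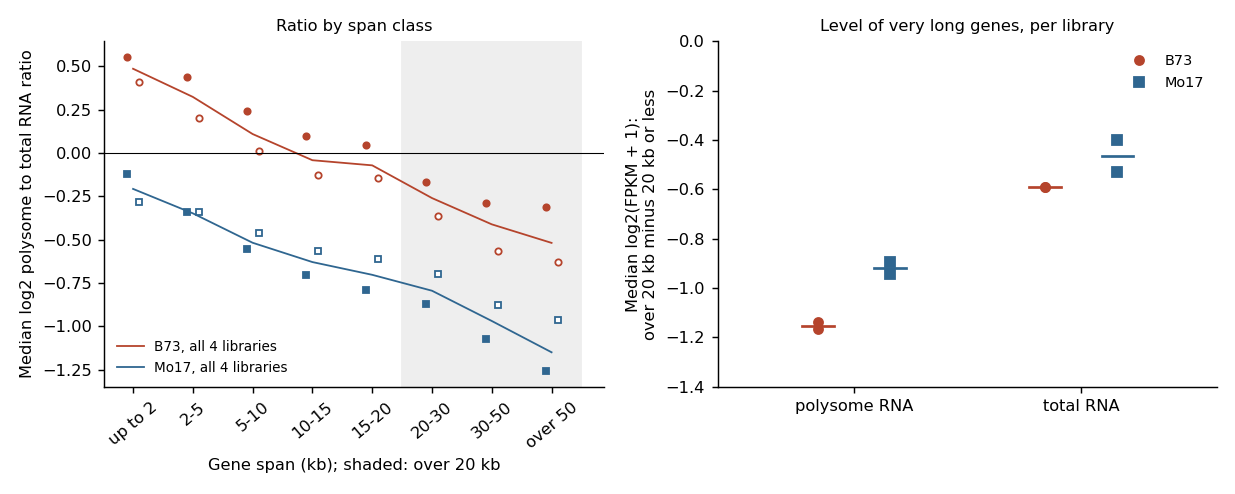
Left, median log2 ratio of polysome to total RNA (y axis) by span class (x axis, kb), with lines for the fit on 4 libraries, filled symbols for replicate 1 and open ones for replicate 2. Right, median log2(FPKM + 1) of very long genes minus that of other expressed genes (y axis) in each polysome and total RNA library, with bars for means: −1.15 and −0.59 in B73, −0.92 and −0.46 in Mo17.

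The ratio was compared between very long genes with different numbers and places of summits, as a description without a test. In B73, genes with terminal and internal summits in both replicates (190), terminal without internal (204), internal without terminal (58) and neither in both (37) had median ratios of −0.32 ± 0.18, −0.33 ± 0.17, −0.31 ± 0.12 and −0.38 ± 0.17 (SD, n = 2 replicates). In Mo17 the same classes held 177, 212, 100 and 76 genes, with −0.85 ± 0.13, −0.84 ± 0.10, −0.98 ± 0.12 and −0.83 ± 0.11 (SD, n = 2 replicates). In B73 the class with neither was the lowest, by less than the SD, and in Mo17 internal without terminal was the lowest. These SDs hold a shift between replicates that all classes of a line share, so they are not the error of a difference between classes. Genes with at least 5 summits in both replicates had −0.32 ± 0.17 in B73 and −0.84 ± 0.20 in Mo17, and genes with 1 had −0.33 ± 0.17 and −0.87 ± 0.08 (SD, n = 2 replicates). The class of 3 to 4 summits was lowest in each line, at −0.41 ± 0.18 in B73 and −1.05 ± 0.17 in Mo17, and the class of 2 was highest, at −0.30 ± 0.13 and −0.77 ± 0.13 (SD, n = 2 replicates). Within replicates 1 and 2, the median of 3 to 4 summits minus that of 2 came to −0.06 and −0.13 for B73, and to −0.29 and −0.22 for Mo17. There was no steady order with number.

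Of the 21 members higher in polysome RNA in B73, 15 had a terminal summit in both replicates (71.4%, against 80.6% of all very long genes of the line). Zm00001d050054 (chromosome 4, 62652401 to 62672981, plus strand) had 38.5 and 30.3 FPKM in polysome RNA and 8.24 and 11.3 in total RNA, with no overlap (log2 ratio 1.72 ± 0.22 SE, limma adjusted p = 0.00200). Its 1 summit in each replicate lay at 98.8% of the span, with folds of 15.1 and 10.2. Zm00001d044481, at 16.3 and 13.8 FPKM in polysome RNA and 3.87 and 5.33 in total RNA, had no summit. Zm00001d047218, with 45.6 and 40.7 FPKM in polysome RNA and 13.9 and 15.3 in total RNA, rose (log2 ratio 1.497 ± 0.17 SE, limma adjusted p = 0.00134), and so did Zm00001d009657, with 69.5 and 51.7 against 19.7 and 22.0 FPKM (log2 ratio 1.48 ± 0.19 SE, limma adjusted p = 0.00226). Both calls were lost after scaling to an equal Zm sum, where the ratios were 0.91 and 0.88. Zm00001d052700, with 58.8 and 45.0 against 11.03 and 22.3 FPKM, had a ratio of 1.65, and its limma adjusted p of 0.00875 was 0.0528 without RNA replicate 1 and 0.0635 without polysome replicate 1.

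In Mo17 the members higher in polysome RNA were Zm00014a_033049, Zm00014a_028149, Zm00014a_029811 and Zm00014a_025363. Zm00014a_033049 (chromosome 1, 263187455 to 263233311, plus strand) had 27.5 and 26.5 FPKM in polysome RNA and 9.27 and 10.1 in total RNA, with no overlap (log2 ratio 1.39 ± 0.12 SE, limma adjusted p = 0.000797). It had 1 summit in each replicate, at 99.7% of its 45857 bp. Zm00014a_028149 had 15.3 and 14.6 against 5.71 and 5.63 FPKM and no terminal summit, but 3 and 6 internal ones. Zm00014a_029811, with 24.5 and 24.7 against 8.87 and 11.98 FPKM, had a ratio of 1.18, which was 0.98 without RNA replicate 1 and 0.94 after scaling to an equal Zm sum, so that it was then not called.

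Members lower in polysome RNA included genes with many summits and genes with none. Zm00001d023792 of B73 (chromosome 10, 20844614 to 20890419, plus strand) had 4.41 and 3.87 FPKM in polysome RNA and 19.2 and 25.3 in total RNA, with no overlap (log2 ratio −2.17 ± 0.21 SE, limma adjusted p = 0.000853), and 11 and 12 summits. Zm00001d037401, described above for its 21 and 20 summits, had 1.97 and 2.05 FPKM in polysome RNA and 8.40 and 7.89 in total RNA (log2 ratio −1.60 ± 0.20 SE, limma adjusted p = 0.00178). Zm00001d041880, with 17 and 18 summits, had 7.07 and 3.95 against 13.1 and 12.9 FPKM. Its ratio of −1.14 had a limma adjusted p of 0.0160, which was 0.111 without RNA replicate 1 and 0.106 without RNA replicate 2, and the ratio was −0.79 without polysome replicate 2.

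The largest fall in Mo17 was that of Zm00014a_009697 (chromosome 5, 65065523 to 65111391, minus strand), at 0.680 and 1.44 FPKM in polysome RNA and 15.6 and 16.0 in total RNA (log2 ratio −3.05 ± 0.22 SE, limma adjusted p = 0.000656). It had 1 summit in replicate 1 and 0 in replicate 2. Zm00014a_018155 was listed at 0 and 0.258 FPKM in polysome RNA and at 7.87 and 5.91 in total RNA (log2 ratio −2.80, limma adjusted p = 0.000769). Without counts, a listed 0 may also be a failed estimate. Zm00014a_041067, with 6 internal summits in each replicate, had 1.90 and 2.25 FPKM in polysome RNA and 16.6 and 16.7 in total RNA (log2 ratio −2.52 ± 0.15 SE, limma adjusted p = 0.000656).

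Very long genes without a summit in either replicate were the exceptions, 22 in B73 (4.499%, where 41.9% of all expressed gene models had none) and 48 in Mo17 (8.496%, against 50.2%). A further 14 and 27 genes had a summit in at least 1 replicate, those in overlaps of spans included, but not an assigned summit in both. Weak expression was more frequent among them. In B73 their median RNA FPKM was 2.88, against 3.40 in the rest of the very long genes, and 9 of 22 (40.9%) were under 2 FPKM, against 20.1% of the rest. In Mo17 it was 3.37, against 6.499, and 9 of 48 (18.8%) were under 2 FPKM, against 7.16%. Peak calling needs reads, and the part of RNA level in these exceptions was not tested. Of the very long genes over 10 FPKM, 1.61% of 62 in B73 and 5.92% of 152 in Mo17 had no summit.

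The single B73 exception over 10 FPKM was Zm00001d018704 (chromosome 7, 2767046 to 2847029, plus strand). It had 38.03 and 25.3 FPKM in polysome RNA and 12.9 and 14.4 in total RNA over a span of 79984 bp. Its log2 ratio of 1.13 ± 0.23 (SE) had a limma adjusted p of 0.00970, but the call was lost under both other scalings, without either RNA replicate (limma adjusted p = 0.0896 and 0.0680) and without polysome replicate 1, where the ratio was 0.85. The nearest summit past its 3′ end was over 5000 bp away. Zm00001d006475 (69021 bp), at 9.68 and 13.8 FPKM in polysome RNA and 11.6 and 7.25 in total RNA, and Zm00001d016863 (84786 bp), at 3.85 and 3.98 against 3.98 and 3.25 FPKM, were also well over 50 kb and had overlapping groups.

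Of the Mo17 exceptions, 9 were over 10 FPKM, and they moved in both directions in polysome RNA. Zm00014a_012517 (chromosome 5, 47051663 to 47076949, minus strand) had 8.51 and 9.17 FPKM in polysome RNA and 40.6 and 41.3 in total RNA, with no overlap (log2 ratio −2.09 ± 0.11 SE, limma adjusted p = 0.000656). Zm00014a_025363 (chromosome 2, 195155475 to 195181400, plus strand) had 32.04 and 34.9 FPKM in polysome RNA and 15.5 and 14.2 in total RNA (log2 ratio 1.12 ± 0.12 SE, limma adjusted p = 0.00118), with 0.88 and no call under an equal Zm sum. Zm00014a_002532, at 49.2 and 46.9 FPKM in polysome RNA and 29.96 and 29.5 in total RNA, and Zm00014a_020414, at 26.5 and 24.3 against 31.6 and 35.0 FPKM, did not reach the ratio for a call. Zm00014a_013557 spans 110402 bp and had 10.2 and 10.9 FPKM in polysome RNA and 20.4 and 22.3 in total RNA, with a ratio of −0.95, just short of it.

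The polysome ratio of the exceptions as a group overlapped that of the rest across replicates. In B73, 2 were higher and 2 lower, with medians of −0.25 and −0.21 for replicates 1 and 2, against −0.21 and −0.44 in the rest, while the ratios over all 4 libraries had medians of −0.07 and −0.33. In Mo17, 1 of the 48 was higher and 17 lower, with medians of −0.91 and −0.68, against −0.93 and −0.80. Among all very long Mo17 genes, 39.8% were called lower and 0.708% higher, where every tested Mo17 gene gave 16.6% and 5.07%. Lower calls were thus frequent in very long Mo17 genes and not particular to the exceptions. For very long B73 genes the lower share was 7.98% and the higher one 4.29%, beside 5.36% and 16.6% of the tested genes. Both lower exceptions of B73 were close to absent from polysome RNA. Zm00001d014867 had 0.325 and 0.209 FPKM there and 4.74 and 5.22 in total RNA (log2 ratio −2.24 ± 0.20 SE, limma adjusted p = 0.000650), and Zm00001d053826 had 0.134 and 0.147 against 3.19 and 3.17 FPKM (log2 ratio −1.87 ± 0.19 SE, limma adjusted p = 0.000951).

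**Figure D5:**
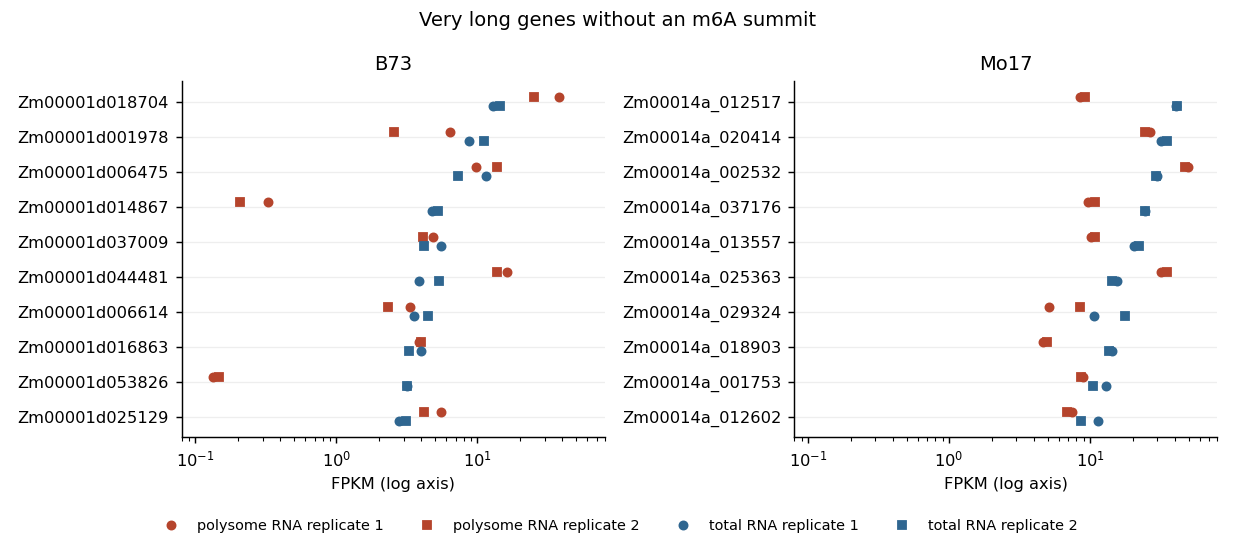
FPKM (x axis, log scale) of the 10 best expressed very long genes without a summit in each line, in 2 polysome and 2 total RNA libraries; names run down the y axis in order of total RNA level. Zm00001d014867 and Zm00001d053826 in B73 and Zm00014a_012517 in Mo17 stand lower in polysome RNA, and Zm00001d044481 in B73 and Zm00014a_025363 in Mo17 stand higher.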

How the data were processed

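m6A-seq, polysome and total RNA samples of B73 and Mo17 (12 samples, 2 per group, grouped by their labels) were analysed line by line. Per the submitters' processing notes, Trimmomatic 0.35, HISAT2, MACS2 and the build B73 RefGen_v4 were used; the sources at hand do not state the Mo17 build, the peaks' control, the strand setting or the annotation. The authors deposited 1 peak list per m6A sample, with a fold enrichment (a ratio), −log10 p and −log10 q values, an integer score and the offset of the summit per peak. The authors deposited 1 table of FPKM per RNA and polysome sample, with spans and strands. How they were made is not stated, and depth is unknown.

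Summits inside a single gene span were assigned to that gene, and other summits to none. Genes with unequal spans in the tables of a line were dropped (1 in B73, 2 in Mo17). Polysome and total RNA were compared per line with limma 3.58.1 (R 4.3.3, trend on, 2 residual degrees of freedom) on log2(FPKM + 1), over genes that reached 1 FPKM in 2 or more of the 4 libraries, with Benjamini-Hochberg adjustment over all of them; the fit was tested on simulated data. Ratios per replicate use libraries with the same number, which the labels do not pair. Tables were handled with pandas 2.3.3, scipy 1.17.1 and matplotlib 3.10.9 in Python 3.11.15.

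The named genes are, per line, the 5 longest, the 5 with most summits, the 5 with the highest total RNA, the 5 with the highest fold that held in both replicates, the 10 best expressed without a summit, up to 5 called in each direction in polysome RNA, and 2 on each side of the span threshold. Not every one of them is described. Genes past these rules, in the closing section, were chosen after their values were seen. The members, classes and tests were chosen with earlier results of these data known. Alternatives were other peak, span, FPKM and overlap thresholds, other scalings, pseudocounts and filters, a replicate block and leaving out each library.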

Additional observations from a re-analysis of the deposited data

Results flagged for a closer look

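Summits outside all gene spans entered no comparison above, yet some stood just past the 3′ end of very long genes that have no summit of their own. In B73, 5 of the 22 such genes (22.7%) had an unassigned summit within 1000 bp past the 3′ end in both replicates, and none (0) had one within 1000 bp before the 5′ end. Of the other expressed B73 models without a summit, 5.11% had one past the 3′ end. Zm00001d025129 (chromosome 10, 105652923 to 105676382, plus strand; 5.47 and 4.2 FPKM in polysome RNA and 2.79 and 3.12 in total RNA) had it 20 and 21 bp past the end. Zm00001d044481 (chromosome 3, 229389338 to 229411816, minus strand) had it at 384 bp in both replicates. Its FPKM was 16.3 and 13.8 in polysome RNA and 3.87 and 5.33 in total RNA (log2 ratio 1.53 ± 0.22 SE, limma adjusted p = 0.00294), and scaled to equal sums over the Zm models its ratio was 0.98, short of a call. The other members with such a summit were Zm00001d032407, Zm00001d042974 and Zm00001d043684, all between 1.22 and 2.06 FPKM in total RNA.

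In Mo17, 7 of the 48 genes (14.6%) had such a summit in both replicates, and 0 before the 5′ end, against 7.11% of the other expressed models without a summit. Zm00014a_018903 had it 197 and 195 bp past the end, Zm00014a_001753 at 282 and 286 bp, and Zm00014a_012602 at 510 and 607 bp. The remaining members were Zm00014a_007443, Zm00014a_008424, Zm00014a_011284 and Zm00014a_010899. Whether these summits belong to transcripts of the very long genes was not tested.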

How the results depend on the processing

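Of 162 alternatives to 12 results, none (0) turned the sign of a median ratio or of the step between assays. The value stayed near the main one in 93 and moved in 69. Near means within a fixed fold change for a count, and within the SD of the 2 replicates for other values. That SD was 0.02 for the B73 step, while 300 lower calls in Mo17 against 225 still counted as near. The tally is thus no measure of robustness. Why a value moved was not tested, beyond fewer or more genes where a threshold was changed. The alternatives added after the data were seen are the RNA window, the choice on polysome libraries, the crossed block and all alternatives to the step between assays.

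The share of very long genes with a summit in both replicates, 92.6% in B73 and 86.7% in Mo17, was 89.4% and 79.3% with peaks of at least 5-fold, 80.8% and 67.4% at a −log10 q of at least 10, 96.8% and 93.0% at an FPKM of at least 5, 88.0% and 82.05% at 0.1, and 94.7% and 87.8% with any overlap of peak and span. It was 93.9% in B73 with summits given to every span, 94.6% without overlapping spans and 93.8% at 2 to 10 FPKM, and in Mo17 83.7% over 15000 bp, 88.6% over 30000 bp and 85.7% where the replicates' peaks had to overlap. With 1 m6A replicate left out it was 93.0% to 94.7% in B73 and 88.5% to 89.6% in Mo17.

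The share of summits in the last 10% of the span, 32.9% and 36.9%, was 71.2% and 68.0% at a −log10 q of at least 10, 37.8% and 39.96% over 15000 bp, 26.2% and 30.6% over 30000 bp, 25.6% and 34.1% at an FPKM of at least 5, and 39.7% in Mo17 without overlapping spans. With 1 m6A replicate left out it was 30.1% to 35.8% and 35.8% to 38.1%.

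Higher calls were 21 and 4 in the main fit, where 16.6% and 5.07% of all tested genes were higher. They numbered 6 and 16 with scaling by the median of log ratios, and 1 and 2 with an equal sum. On the adjusted p alone they numbered 42 and 23, with no share taken over all tested genes. Over 15000 bp, 59 of 907 and 13 of 1065 genes were higher, and over 30000 bp 3 of 169 and 1 of 175. A pseudocount of 0.1 gave 7 in Mo17, where 5.73% of all tested genes were higher. Leaving out a library gave 10 to 25 and 4 to 6. Lower calls were 39 and 225 in the main fit, where 5.36% and 16.6% of all tested genes were lower. They numbered 14 and 143 at an FPKM of at least 5, and 96 and 108 with the median of log ratios. An equal sum gave 145 and 300. On the adjusted p alone they numbered 118 and 386, again without such a share. Over 15000 bp, 63 of 907 and 358 of 1065 genes were lower, and over 30000 bp 20 of 169 and 86 of 175. A pseudocount of 0.1 gave 92 and 304, where 7.20% and 23.6% of all tested genes were lower. Fits without a library are again left out.

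The median log2 ratio, −0.33 and −0.85, was −0.58 and −0.55 with the median of log ratios, −0.75 and −1.05 with an equal sum, and −0.0057 in B73 at an FPKM of at least 5, with 19 higher and 14 lower calls; there, and with 24 and 23 when members were chosen on polysome libraries, lower calls no longer outnumbered higher ones. In Mo17 it was −1.14 with a pseudocount of 0.1 and −0.99 over 30000 bp. Leaving out a library gave −0.40 to −0.23 and −0.92 to −0.81.

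The step between assays, −0.56 and −0.45, was −0.68 and −0.59 with a pseudocount of 0.1. In B73 it was −0.52 with the median of log ratios, −0.49 with an equal sum, −0.46 over 15000 bp, −0.78 over 30000 bp, −0.62 without overlapping spans, −0.50 when chosen on polysome libraries and −0.59 at 2 to 10 FPKM. Leaving out a library gave −0.58 to −0.55 and −0.52 to −0.39. A scaling moves both sides of the step alike, so it bears on it only through the pseudocount.

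Deviations of same-numbered libraries had correlations of −0.13 in B73 and −0.03 in Mo17 across tested genes. With 2 libraries per assay, this cannot show whether the numbers pair libraries. With a replicate block the calls were 21 higher and 41 lower in B73 and 4 and 225 in Mo17, and with a crossed block 21 and 41 and 4 and 226. Depth, which is unknown here, and 2 libraries per group limit what these counts can show.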

Other observations

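Of the 368 B73 models over 20000 bp that were under the RNA minimum, 128 (34.8%) had a summit in both replicates, against 4.58% of the 26202 shorter models under it and 5.002% of all of these. In Mo17, 50 of 259 did (19.3%), against 2.33% of 18348 shorter models and 2.57% of all. These models were not matched for RNA level. Those with a summit in both had a median total RNA FPKM of 0.619 in B73 and 0.588 in Mo17, and in each line those without any had a median of 0.

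Some models listed at 0 FPKM in both RNA libraries carried repeatable summits, 6 of 163 in B73 (3.68%, where 0.673% of all models at 0 did) and 9 of 142 in Mo17 (6.34%, against 0.780%). Zm00014a_010508 of Mo17 (chromosome 1, 276233658 to 276255828, minus strand) had 9 and 7 summits with top folds of 14.99 and 15.1, and was listed at 0.692 and 0 FPKM in polysome RNA. Zm00014a_029592 of Mo17 (chromosome 6, 154890278 to 154928101, minus strand) had 2 and 2 summits with top folds of 12.2 and 13.9, and was listed at 0 in all 4 RNA and polysome libraries. Zm00001d013120 of B73 (chromosome 5, 5101330 to 5122110, plus strand) had 1 summit in each replicate, with folds of 12.6 and 13.9, and was listed at 0.278 and 0 FPKM in polysome RNA. Zm00001d026864 of B73 spans 138065 bp, more than any expressed model of that line, and had 1 and 2 summits. Zm00014a_020647 of Mo17 was listed at 18.2 and 0 FPKM in the 2 polysome libraries, so its replicates disagree. A 0 in these tables can be a failed estimate, and these models were singled out after their values were seen.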
